A study of Mus musculus with 8 samples.

Results

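The long intergenic noncoding regions of the array are stretches of the mouse genome between known genes that are named by chromosome, start and end rather than by a gene. Every non-control probe whose gene name is such a position was taken, which gave 16194 of 55681 probes (29.1%) in 4610 regions, out of 35715 names on the array, and no probe had a name that started with lincRNA. Long intergenic noncoding RNAs (lincRNAs) are transcribed from DNA outside protein-coding genes, are often spliced and polyadenylated, and are usually present in fewer copies per cell than mRNAs. Many were first found as chromatin domains with the marks of an active promoter and of elongation, and so have an interval but no name. Intergenic DNA also holds processed pseudogenes, retrotransposed copies of mRNAs, of which ribosomal protein genes have left many in the mouse.

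The regions were read in 8 single endocardium cells, the endothelial cells that line the heart, from E8.5 embryos with 9 somites. In the cells called WT (4 cells, Mesp1+/+_Sox17flox/flox) *Sox17* was floxed and intact. In the cells called *Sox17* KO (4 cells, Mesp1Cre/+_Sox17flox/flox) the Cre recombinase was driven by *Mesp1*, a gene of nascent mesoderm, so that *Sox17*, an Sry-type HMG box factor of endoderm and endothelium, was deleted in the descendants of *Mesp1*-expressing mesoderm and not in the endocardium alone. Both groups carried the same floxed alleles, and they differed in *Mesp1* too, since the Cre allele took the place of 1 copy of it. Cells came from the heart tube by the labels and from the ventricle by the study's methods. The cDNA of each cell, primed with oligo(dT), was amplified, and RNA transcribed from it was hybridized to an array of its own (1-colour Agilent SurePrint G3 Mouse GE 8x60K).

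No label or text ties a cell to an embryo, so that each genotype counted as 1 sample. No test was made, values are given per cell, and differences stand beside the SD between cells. The 8 arrays shared 1 slide and 1 scan. The genotypes sat in separate columns of the slide, and position on it and genotype cannot be told apart. The scanner software's call "well above background" is used as detection. The signal is the background-corrected intensity, scaled so that the median of the 7570 probes detected on all 8 arrays was equal between arrays, set to at least 50 and given as log2, so that 5.64 is the floor and no measured level. It is a brightness of 1 probe and was not set against the brightness of another. The SD between cells pools both genotypes. Where all cells of a genotype are at the floor, the floor hides its spread. The pooled SD is then smaller than the SD of the other genotype alone. Of the region probes, 16085 in 4606 regions were usable on all 8 arrays, and 109 probes and 4 regions were left out.

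Endocardial and endothelial markers were detected in every cell, from 6 to 10 of 10 genes. Cardiomyocyte markers were detected too, from 3 to 7 of 9 genes in both genotypes, with 2 of 3 smooth muscle markers in each cell, 0 or 1 of 5 blood markers and 0 of 5 endoderm markers. The part of these markers in the results below was not tested. Neither of the 2 *Sox17* probes was detected in any cell, so that the array does not check the genotype labels.

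The regions were covered by 1 to 10 probes each, with a median of 3. There were 690 regions with 1 probe, 1810 with 3, 975 with 5 and 147 with 10. Probes were 60 bases long with 1 spot each, 8184 on the forward and 8010 on the reverse strand, and their positions are given on mm9. A region had a median length of 10676 bases, from 62 bases to 7128487 bases. The regions stood for 3543 intervals, of which 1067 were tiled on both strands, so that the same interval often counts as a pair of regions. The label was checked against the probes of mRNAs on the same array. An mRNA probe on the same strand lay inside 167 regions (3.63%) and on the opposite strand inside 158 (3.43%), and 4297 regions held neither. Annotated exons, introns and UTRs of mm9 were not used here.

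In some of the brightest regions, the probes shared sequence with genes that lie elsewhere in the genome, and a sequence is shown here because it bears on what such a probe reads. It is a 60-base probe of chr7:108209996-108216032, written 5′ to 3′, and the capitals mark the run of 28 bases shared with a probe of *Rps29*, which encodes a protein of the small ribosomal subunit. The file gives no mm9 position for it within the region.
probe of chr7:108209996-108216032 (reverse strand by name): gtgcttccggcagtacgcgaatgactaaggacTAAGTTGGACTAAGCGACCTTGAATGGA

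The signal of this probe followed that of the *Rps29* probe over the 8 cells with Pearson's r of 0.993, with the scaling of each array shared by both probes. The probe of chr17:48068261-48087905 (forward strand), a region of 19645 bases with 1 probe, shared 22 bases with the probe of *Mif*, which encodes a cytokine and whose probe the file places at chr10:75322098-75322157. WT cells 1 to 4 read 16.37, 15.54, 16.01 and 16.03 there on the log2 scale, KO cells 1 to 4 read 16.97, 17.04, 15.88 and 16.58, and per-cell values below keep that order. The signal of the *Mif* probe was 16.48, 15.86, 16.35 and 16.33 in WT and 17.25, 17.35, 16.23 and 16.95 in KO cells. Except for WT cells 3 and 4 the cells came in the same order on both probes, with KO cell 2 the brightest, and the genotypes overlapped. Here r was 0.988, and the part of RNA of *Mif* in the signal of this probe was not tested.

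Runs of at least 20 bases shared in the same orientation with a probe for another place in the genome were found for 80 region probes, and runs in the opposite orientation for 124. With the probes that have no position, these were 208 probes, 1.29% of the usable region probes. Probes with a run in the same orientation elsewhere were detected in all 8 cells in 28.8% of cases, and probes with a run in the opposite orientation in 49.2%. Of the 15618 region probes with no shared run, 11.9% were detected in all 8 cells. Only probe sequences were compared, so that matches to parts of transcripts that no probe covers were not counted. Such matches may be present among the probes with no shared run. In the 36 pairs of the same orientation with values to compare, r over the 8 cells had a median of 0.989, and in 85 pairs of opposite orientation it was 0.757. Ribosomal protein genes were the partners of 20 probes in 18 regions, and all 20 were detected in all 8 cells. Other partners encode abundant proteins of other kinds. *Cox5b*, a subunit of cytochrome c oxidase, shared 36 bases with chr4:33364774-33364898 (r of 0.976), and *Hspe1*, a mitochondrial chaperonin, shared 30 bases with chr12:82495575-82516300 (r of 0.996).

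Shared bases did not always come with shared signal. The brightest region of all, chr11:22681800-22707775 (reverse strand), shared 45 bases with the probe of *Rps16*, another protein of the small subunit, and r between them was 0.184. Its log2 signal was 18.56, 16.48, 17.42 and 16.68 in WT cells and lay between 16.71 and 18.12 in KO cells, with KO cell 2 the highest of them, and the *Rps16* probe read 15.99, 16.53, 17.74 and 16.95 in WT and 17.82, 18.45, 16.94 and 17.61 in KO cells. WT cell 1 was the brightest cell on the region's probe and the dimmest on that of *Rps16*. The region's probe did follow the unnamed probes with which it shared bases in the same orientation. With an unnamed probe elsewhere in the genome it shared 28 bases, with r of 0.991. With an unnamed probe inside its own interval it shared 52 bases, with r of 0.989. The probe of chr2:167085700-167117795 (reverse strand) shared 31 bases with the same *Rps16* probe with r of 0.288. It shared 26 bases with the unnamed probe inside the chr11 interval, whose signal it followed with r of 0.999.

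Some region probes carried the reverse strand of ribosomal protein sequence and were bright in every cell. The capitals mark here the run whose complement is part of a probe of *Rps2* and *Rps18*, in that order.
chr2:143968757-143968816 (forward strand): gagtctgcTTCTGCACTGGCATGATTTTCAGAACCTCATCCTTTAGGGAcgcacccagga
chr13:98530485-98530544 (forward strand): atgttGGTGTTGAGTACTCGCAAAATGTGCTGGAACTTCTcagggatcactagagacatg

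The run was 41 bases for *Rps2* with r of 0.813, and 35 bases for *Rps18* with r of 0.982. The mean log2 signal of these probes over the 8 cells was 14.32 and 14.23. Probes for *Tmsb10*, which encodes an actin-binding peptide, *Rpl26* and *Rps15a* had such partners as well, with r of 0.907, 0.874 and 0.981.

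The probes of intergenic regions were detected less often than those of mRNAs in each of the 8 cells. The share of region probes well above background was 18.3%, 23.2%, 19.8% and 26.8% in the WT cells and 21.7%, 18.9%, 25.7% and 24.1% in the KO cells. The genotypes overlapped in this share. Over the 26540 probes with an mRNA accession the share lay between 20.7% and 36.8%, so that the region probes reached from 0.673 to 0.882 of the mRNA share within a cell. The gap was wider at the floor of 50, which from 8.91% to 11.2% of region probes passed against 14.6% to 23.7% of mRNA probes. WT cell 1 had the lowest share of detected mRNA probes and the highest ratio of region to mRNA probes on both scales, 0.882 and 0.735. A detected region probe was often dim. Between 40.8% and 65.6% of those well above background in a cell were under the floor, against 27.6% to 37.3% of the mRNA probes.

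**Figure D1:**
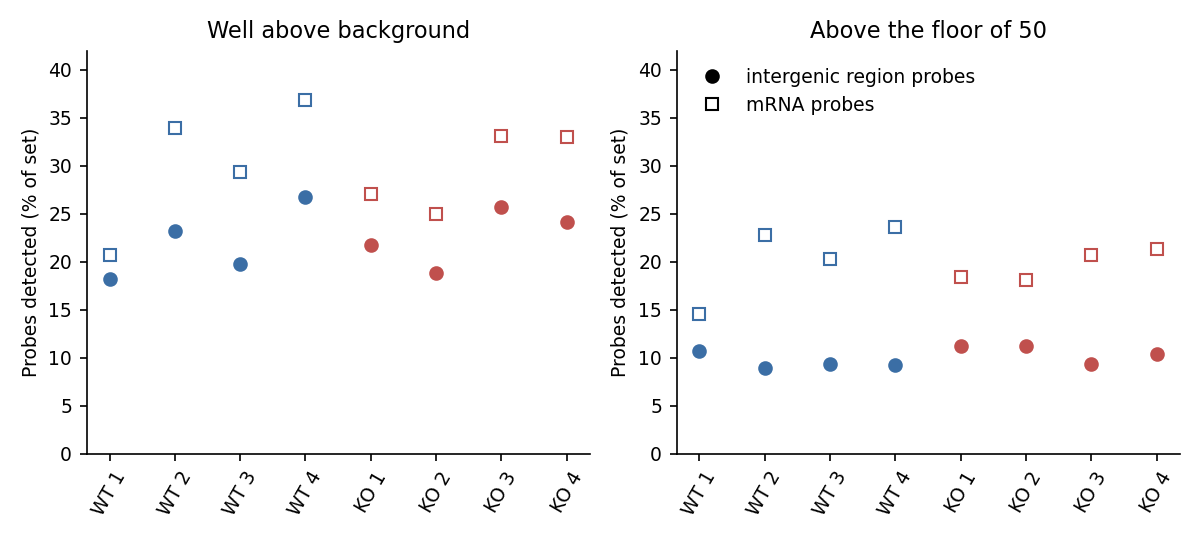
Share of probes detected in each cell, in percent of the usable probes of intergenic regions (filled circles) and of mRNAs (open squares), well above background on the left and above the floor of 50 on the right, with WT cells in blue and *Sox17* KO cells in red. Region probes lie below mRNA probes in all 8 cells, at 18.3% to 26.8% on the left and 8.91% to 11.2% on the right.

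Detection fell into a group of probes seen in every cell and a group seen in 1. Of the usable region probes, 9614 (59.8%) were detected in no cell and 6471 (40.2%) in at least 1. Among the detected, 1968 (30.4%) were detected in all 8 cells and 1880 (29.1%) in 1 cell, with 349 to 658 probes at each number between. Of the detected mRNA probes, 22.6% were found in all 8 cells and 23.3% in 1, and 55.6% of all mRNA probes were detected in at least 1 cell. By region, 1352 had no probe detected in any cell, 3254 had some, and 1417 had a probe detected in all 8 cells.

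**Figure D2:**
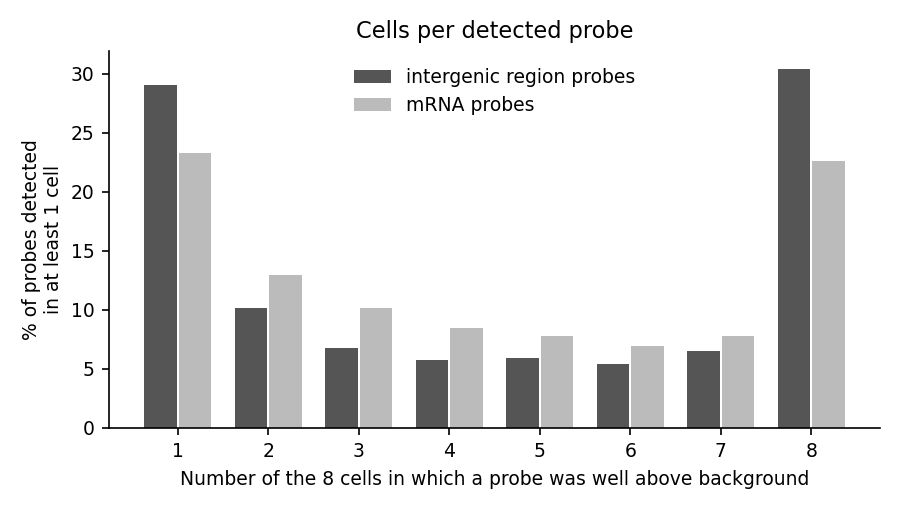
Number of the 8 cells in which a probe was well above background (horizontal axis), in percent of the probes detected in at least 1 cell, for intergenic regions (dark bars) and mRNAs (light bars). Of the region probes, 29.1% were detected in 1 cell and 30.4% in all 8.

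Where a region probe was above the floor in every cell, its signal varied less between cells than that of mRNA probes, and the medians were lower in each of 5 bands of level. The SD over the 8 cells had a median of 0.74 on the log2 scale over 822 region probes and of 1.10 over 1780 mRNA probes. At a mean log2 signal of 10 to 12 the medians were 0.77 and 1.69, at 6 to 8 they were 0.69 and 0.71, and at 14 to 19 they were 0.69 and 0.75. Over the 3327 region probes above the floor in at least 1 cell, Pearson's r between cells ranged from 0.669 to 0.798 (median 0.725) in the 12 pairs within a genotype and from 0.644 to 0.778 (median 0.734) in the 16 pairs that crossed the genotypes. The cells of a genotype were not closer to each other than to the other genotype on this measure.

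The probes of a region often disagreed. Within regions, 29215 pairs of probes in 3908 regions had the same detection call in 70.5% of pairs and cells, against 65.5% for pairs taken from different regions. Where at least 1 probe of the pair was detected, both were in 21.1%, against 12.8% between regions. This share was lower the farther the probes lay apart, at 58.2% for the 199 pairs that overlapped, 24.1% at 60 to 500 bases, 16.5% over 500 and up to 5000 bases and 16.4% beyond. Of the 3346 regions with at least 3 probes, 1154 had a probe detected in all 8 cells, and 990 of these (85.8%) also had a probe detected in no cell. The same held for 162 of 312 mRNA genes with at least 3 probes (51.9%). In 34 regions with at least 3 probes, every probe was detected in all 8 cells.

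Some of the brightest regions rested on 1 probe among several. In chr6:83368261-83407280 (forward strand, 5 probes), a probe with a G and C rich sequence read 16.20, 15.29, 15.82 and 15.32 in WT and 16.11, 16.49, 15.19 and 16.10 in KO cells. The probe that starts right after it was at the floor in all 8 cells, and none of the other 3 passed 6.79 in any cell. In chr13:108548345-108679004 (reverse strand, 6 probes), a probe read 16.13, 15.01, 15.67 and 14.60 in WT and 16.51, 16.36, 15.30 and 15.61 in KO cells while the other 5 were at the floor in all cells, as were all 10 probes of the forward strand of that interval. The bright probes are shown because their neighbours within the region did not share their signal.
chr6:83406215-83406274 (forward strand): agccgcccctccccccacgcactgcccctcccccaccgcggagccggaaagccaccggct
chr13:108549873-108549932 (reverse strand): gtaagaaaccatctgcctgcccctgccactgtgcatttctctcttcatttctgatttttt

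In other regions the bright probes lay side by side. Of the 9 probes of chr13:64018565-64082570 (forward strand), 4 within 28880 to 29158 bases of its 5′ end had mean signals from 8.72 to 15.47 and were detected in all 8 cells, and 5 probes from 35421 bases on were at the floor. In chr6:116092274-116144199 (reverse strand, 10 probes), 5 probes between 19999 and 20321 bases from the 5′ end were detected in all 8 cells and the other 5 in none. The array places a probe of *H2afz*, which encodes a histone H2A variant, inside the interval on the opposite strand, 634 bases from the brightest of them. By the same position, the region chr6:116123643-116124550 (forward strand) had the *H2afz* probe on its own strand inside it, and its brightest probe read 16.81, 15.76, 15.44 and 14.22 in WT and 15.13, 17.29, 15.45 and 16.72 in KO cells. Whether the *H2afz* gene itself lies there was not looked up, and the part of its RNA in these signals was not tested.

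Of the 1067 intervals tiled on both strands, 1013 had a detected probe on at least 1 strand and 711 on both. A probe was detected in all 8 cells on the forward strand in 440 and on the reverse strand in 406 intervals, and on both in 196, which is 30.2% of the 650 with either. The reverse strand had such a probe in 44.5% of the intervals where the forward strand had and in 33.5% where it had not.

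Detection went with the sequence of a probe, and less clearly with its position. Probes detected in no cell lay at a median of 72.1% of the way from the 5′ end of their region, and probes detected in all 8 cells at 63.7%. The quartiles, 38.8% to 93.2% and 32.3% to 88.8%, overlapped widely. Median region length differed too, at 11915 and 15601 bases. Mean GC content was 42.2% for probes detected in no cell and 50.5% for those in all 8, while the share of C was 20.2% and 28.6% and that of A 29.8% and 21.7%. In mRNA probes mean GC content was 41.0% and 45.7%. The polyadenylation signal AATAAA, searched on the strand of the probe, was in 4.19% of region probes detected in no cell and in 3.15% of those in all 8, whereas in mRNA probes the shares were 10.9% and 20.7%. The share of probes detected in at least 1 cell was 33.0% in regions of up to 1000 bases and 43.4% in regions over 10000 and up to 100000 bases long, and it lay between 33.8% on chromosome 9 and 45.1% on chromosome 6.

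Detection in at least 1 cell was most frequent close to an mRNA probe. Distances were taken between the starts of probes, so that probes less than 60 bases apart overlapped and shared sequence or its complement. Of such region probes, 67.7% of 31 on the same strand and 92.6% of 27 on the opposite strand were detected in at least 1 cell. At 60 to 1000 bases the shares were 60.4% of 202 and 48.5% of 301, and farther away they lay between 36.2% and 43.0%. The shares detected in all 8 cells, on the same and the opposite strand, were 19.4% and 22.2% under 60 bases, 12.4% and 10.3% at 60 to 1000 bases, and between 7.88% and 13.8% farther away. Detection also went with that of the neighbour itself. Within 20000 bases, where the mRNA probe was detected in all 8 cells, 20.5% of 292 region probes on the same strand and 17.9% of 364 on the opposite strand were detected in all 8 cells, and where it was detected in none the shares were 8.79% of 1012 and 9.18% of 1079. The signals followed each other over the 8 cells up to 1000 bases, with a median r of 0.997 for 62 pairs on the same strand and 0.834 for 84 on the opposite strand at 60 to 1000 bases. Beyond 1000 bases the medians lay between -0.14 and -0.09, for 298 to 485 pairs, and 2 probes that are each above the floor in 1 cell, and not in the same one, give -0.14 by arithmetic. Where both are above the floor in the same 1 cell alone, r is 1 by arithmetic, which also bears on the near pairs. Each r is over 8 cells that share the scaling of their arrays.

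WT and *Sox17* KO cells were compared by the difference of mean log2 signal (KO minus WT). Over all 55295 usable probes, 1.37% were at least 5-fold higher and 1.38% at least 5-fold lower in KO cells. Of the region probes, 45 (0.28%) were at least 5-fold higher and 38 (0.236%) lower, under the background in both directions. These shares include probes detected in no cell. Of the probes above the floor in at least 1 cell, 1.35% of 3327 region probes were 5-fold higher and 1.14% lower, against 4.14% and 4.16% of all probes and 5.4% and 5.92% of mRNA probes. Scaled to the 75th percentile, 34 region probes were 5-fold higher and 45 lower, so that the balance of the directions depends on the scaling.

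Most region probes differed little between the genotypes. Over the 6471 region probes detected in at least 1 cell the median difference was 0.00, with 2003 higher in KO, 1324 lower and 3144 at the floor in all cells. Over those above the floor in all 8 cells it was 0.20 for the 822 region probes, 0.29 for all 4109 probes and 0.23 for the 1780 mRNA probes. Scaling to the 75th percentile moved the median of all probes from 0.29 to -0.10, and scaling to a percentile of all probes moved it to 0.04 or 0.05, so that differences of this size have no fixed sign.

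**Figure D3:**
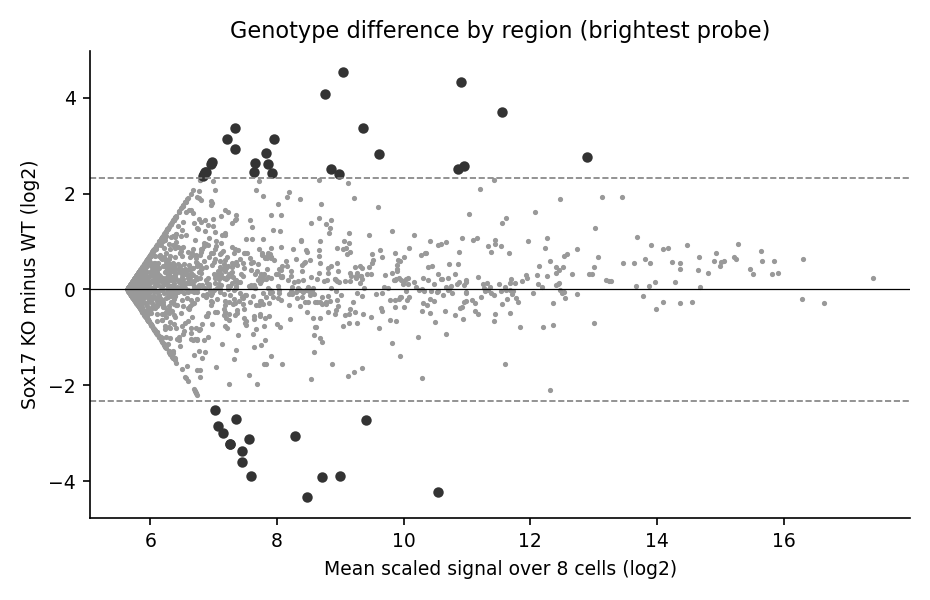
Difference between genotypes (*Sox17* KO minus WT, log2) against the mean log2 signal over all 8 cells for the brightest probe of each of the 4606 regions, with dashed lines at a 5-fold difference. Of the regions, 26 lie above the upper line and 16 below the lower one (dark points).

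By the brightest probe of each region, 26 of 4606 regions (0.564%) were at least 5-fold higher in KO and 16 (0.347%) lower, against 2.72% and 2.99% of 19912 mRNA genes. The SD between cells in these 42 regions had a median of 2.22, close to the 5-fold difference of 2.32. In 26 of them the difference went below 5-fold when some cell was left out. In the 36 that had other probes, 70 of the 141 other probes went the same way, 25 of them by 5-fold, 60 were at the floor in all cells and 11 went the opposite way.

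Every KO cell was above every WT cell in 17 regions (0.369%), and every WT cell above every KO cell in 5 (0.109%), against 0.532% and 0.118% of all probes. The units differ, since a region counts by its brightest probe and all 55295 usable probes count singly. Scaled to the 75th percentile, the counts were 8 and 23, so that the direction that prevails turned with the scaling. Leaving out WT cell 1 gave 77 regions with KO above WT, and leaving out KO cell 3 gave 73. The 5 regions with the widest gap in each direction are described one by one, and each kept its sign in every other setting that gave it a value. They were chosen for the lack of overlap, so leaving out a cell could hardly turn the sign. Among probes detected on all arrays, only the chr3, chr2 and chr19 regions had a value. Their probes are shown to let the measured stretch be found in the genome. With every KO cell above every WT cell they were the following.
chr8:40240046-40240105 (reverse strand): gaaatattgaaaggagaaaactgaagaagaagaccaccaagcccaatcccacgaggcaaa
chr17:89007489-89007548 (forward strand): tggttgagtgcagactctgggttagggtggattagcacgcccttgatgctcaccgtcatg
chr11:97484060-97484119 (reverse strand): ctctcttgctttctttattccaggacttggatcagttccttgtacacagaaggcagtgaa
chr8:26870435-26870494 (forward strand): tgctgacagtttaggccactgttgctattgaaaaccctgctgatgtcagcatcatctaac
chr3:92066542-92066601 (forward strand): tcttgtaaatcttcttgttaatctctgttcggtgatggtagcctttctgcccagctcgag

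The region chr11:97457180-97487074 (reverse strand, 29895 bases, 7 probes) had the largest difference among them. Its brightest probe read 5.64, 5.64, 7.67 and 7.92 in WT cells and 10.87, 12.47, 9.37 and 10.52 in KO cells, a difference of 4.09 (SD between cells 1.26, 4 cells each). It was detected in 3 WT and 4 KO cells. The probes on either side of it, which start 60 bases before and after, were detected in no cell. Its nearest mRNA probe, 4780 bases away on the same strand, was that of *E130012A19Rik*.

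The region chr8:40238025-40264250 (reverse strand, 4 probes) read 5.64 in all WT cells and 12.12, 8.82, 7.33 and 7.81 in KO cells, a difference of 3.38 (SD 1.53, and 2.16 among KO cells alone). It was detected in all 4 KO cells and in 2 WT cells, where it was under the floor. Without KO cell 1 the difference was 2.34 and without KO cell 3 it was 3.94. The other 3 probes were at the floor in all WT cells and in KO cell 1, and passed it in KO cell 2 at 6.48 to 7.88. A neighbouring region, chr8:40100925-40196350 (reverse strand), was also over 5-fold higher in KO cells. Its brightest probe was at 5.64 in all WT cells and in KO cell 1, and at 10.64, 8.75 and 10.07 in KO cells 2 to 4, a difference of 3.13 (SD 1.58), which was 4.17 without KO cell 1 and 2.51 without KO cell 2. It overlapped a probe of *Tusc3*, a subunit of the oligosaccharyltransferase complex, on the opposite strand. The starts of the probes were 29 bases apart, and 31 bases were shared in the opposite orientation. The *Tusc3* probe that overlaps the region read 9.40, 7.00, 5.64 and 5.85 in WT and 5.64, 9.86, 11.50 and 11.32 in KO cells.

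The region chr17:88993214-89025839 (forward strand, 9 probes) read 5.64, 5.73, 6.46 and 5.64 in WT and 9.92, 8.99, 8.12 and 8.14 in KO cells, a difference of 2.92 (SD 0.67). The dimmest KO cell was 1.66 above the brightest WT cell. This probe starts 14275 bases from the 5′ end of the region. Of the other 8 probes, 5 were at the floor in all cells, the probe at 14011 bases overlapped between genotypes, the probe at 14439 bases was above the floor in KO cell 1 alone, and the last probe, at 28766 bases, differed by -1.40 (SD 1.65). The single probe of chr8:26870059-26870530 (forward strand) was detected in no WT cell and read 8.10, 8.41, 7.04 and 7.00 in KO cells, at least 3.98-fold higher than in WT cells (SD 0.51, and 0.72 among KO cells alone).

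The region chr3:92065425-92086850 (forward strand) had the probe of *Sprr2a2*, a gene of the cornified envelope, as its nearest mRNA probe, 22770 bases away. Its 2 probes, which follow each other without a gap, were detected in all 8 cells and gave the same picture. The brighter read 9.98, 10.29, 10.49 and 10.19 in WT and 11.51, 12.06, 11.42 and 12.26 in KO cells, and the other 9.68, 9.90, 9.89 and 9.58 in WT and 11.46, 11.40, 10.80 and 11.74 in KO cells. The differences were 1.58 (SD 0.33) and 1.59 (SD 0.30), and at 2.98-fold for the brighter probe they are under the 5-fold limit. The dimmer probe shared 24 bases, in the opposite orientation, with an unnamed probe at chr8:77798684-77798743. That probe read 13.27, 13.39, 13.23 and 13.55 in WT and 14.01, 14.78, 14.52 and 14.85 in KO cells, a difference of 1.18 (SD 0.29), also without overlap between genotypes, and r was 0.887. Only probe sequences were compared, so whether the region's 2 probes match other parts of genes was not tested.

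**Figure D4:**
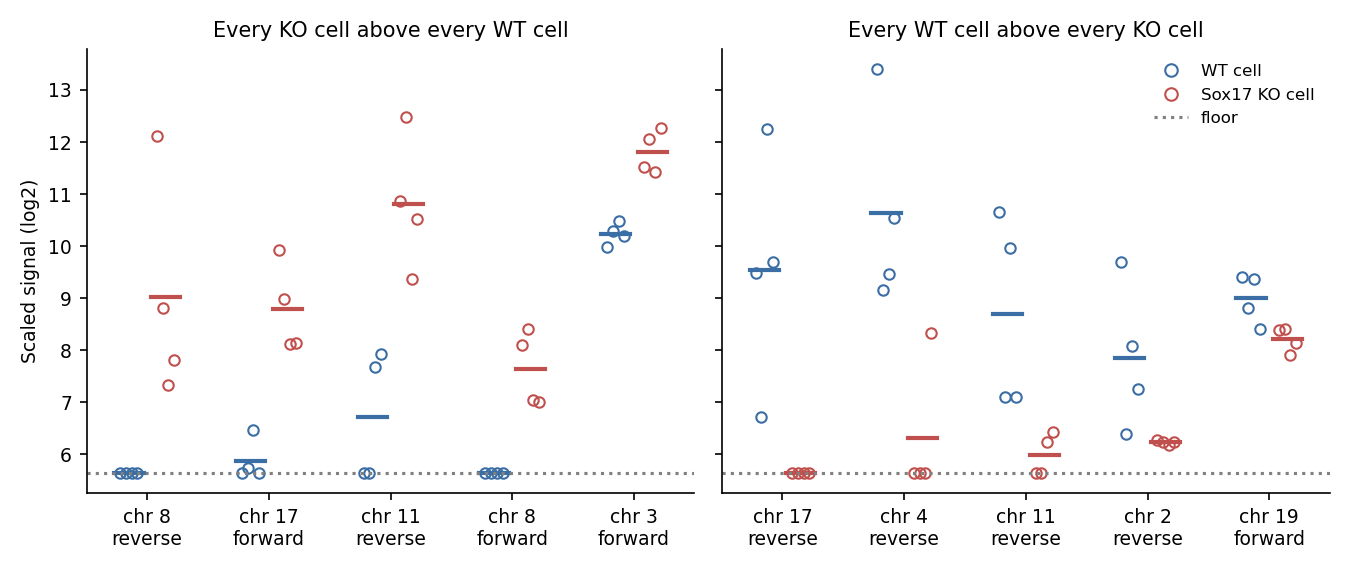
Scaled log2 signal of the 5 regions with the widest gap between genotypes in each direction, by chromosome and strand of the region, with 1 open circle per cell (WT blue, *Sox17* KO red), a bar for the mean of 4 cells and a dotted line at the floor of 5.64. In the left panel the chr11 region reads up to 7.92 in WT cells and from 9.37 in KO cells. In the right panel the chr4 region reads from 9.17 in WT cells and up to 8.33 in KO cells.

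With every WT cell above every KO cell, the widest gaps were in the following probes and in a region of chromosome 4 described after them.
chr17:13012202-13012261 (reverse strand): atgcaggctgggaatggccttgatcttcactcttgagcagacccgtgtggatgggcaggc
chr11:58673000-58673059 (reverse strand): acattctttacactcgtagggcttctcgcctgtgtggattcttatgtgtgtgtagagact
chr2:84363980-84364039 (reverse strand): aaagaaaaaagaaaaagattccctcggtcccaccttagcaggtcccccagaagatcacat
chr19:53524044-53524103 (forward strand): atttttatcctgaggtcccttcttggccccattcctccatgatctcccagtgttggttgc

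The single probe of chr17:12990484-13018375 (reverse strand) read 9.49, 6.72, 12.26 and 9.70 in WT cells and was at the floor in all KO cells, a difference of -3.90 (SD 1.60, and 2.27 among WT cells alone). The difference was -2.99 without WT cell 3 and -4.84 without WT cell 2. In chr11:58659807-58676282 (reverse strand, 5 probes) the values were 10.65, 7.10, 9.96 and 7.09 in WT and 5.64, 5.64, 6.24 and 6.43 in KO cells, a difference of -2.71 (SD 1.36) that was -2.06 without WT cell 1 and -3.25 without WT cell 4. Its other 4 probes overlapped between genotypes. The remaining pair had smaller differences. In chr2:84344350-84370075 (reverse strand) it was -1.62 (SD 0.99), and -1.01 without WT cell 1, with a gap of 0.11 between the genotypes. In chr19:53517903-53540753 (forward strand) it was -0.79 (SD 0.38) with a gap of 0.01.

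The region chr4:146507925-146532650 (reverse strand) had the largest difference in either direction among these 10 regions, and all of its 5 probes showed it. Its brightest probe read 13.39, 9.17, 9.46 and 10.53 in WT cells and 5.64, 5.64, 5.64 and 8.33 in KO cells, a difference of -4.32 (SD 1.66), which was -3.40 without WT cell 1 and -4.99 without KO cell 4. The other 4 probes, all within 809 to 1133 bases of the 5′ end, differed by -2.85 to -4.09. Each probe was highest in WT cell 1 and, among KO cells, in KO cell 4. The brightest probe shared 58 of its 60 bases with a probe of *Baz1a*, a subunit of chromatin remodelling complexes, whose probe lies at chr12:55994808-55994867. The *Baz1a* probe read 13.38, 9.35, 9.55 and 10.65 in WT and 5.64, 5.64, 5.64 and 8.63 in KO cells, a difference of -4.34 (SD 1.68), with r of 0.999 over the 8 cells. RNA of the chr4 region and RNA of *Baz1a* cannot be told apart by the brightest probe. The other 4 probes shared no such run with a gene probe of the array. Only probe sequences were compared, so whether these 4 match other parts of *Baz1a* was not tested.

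**Figure D5:**
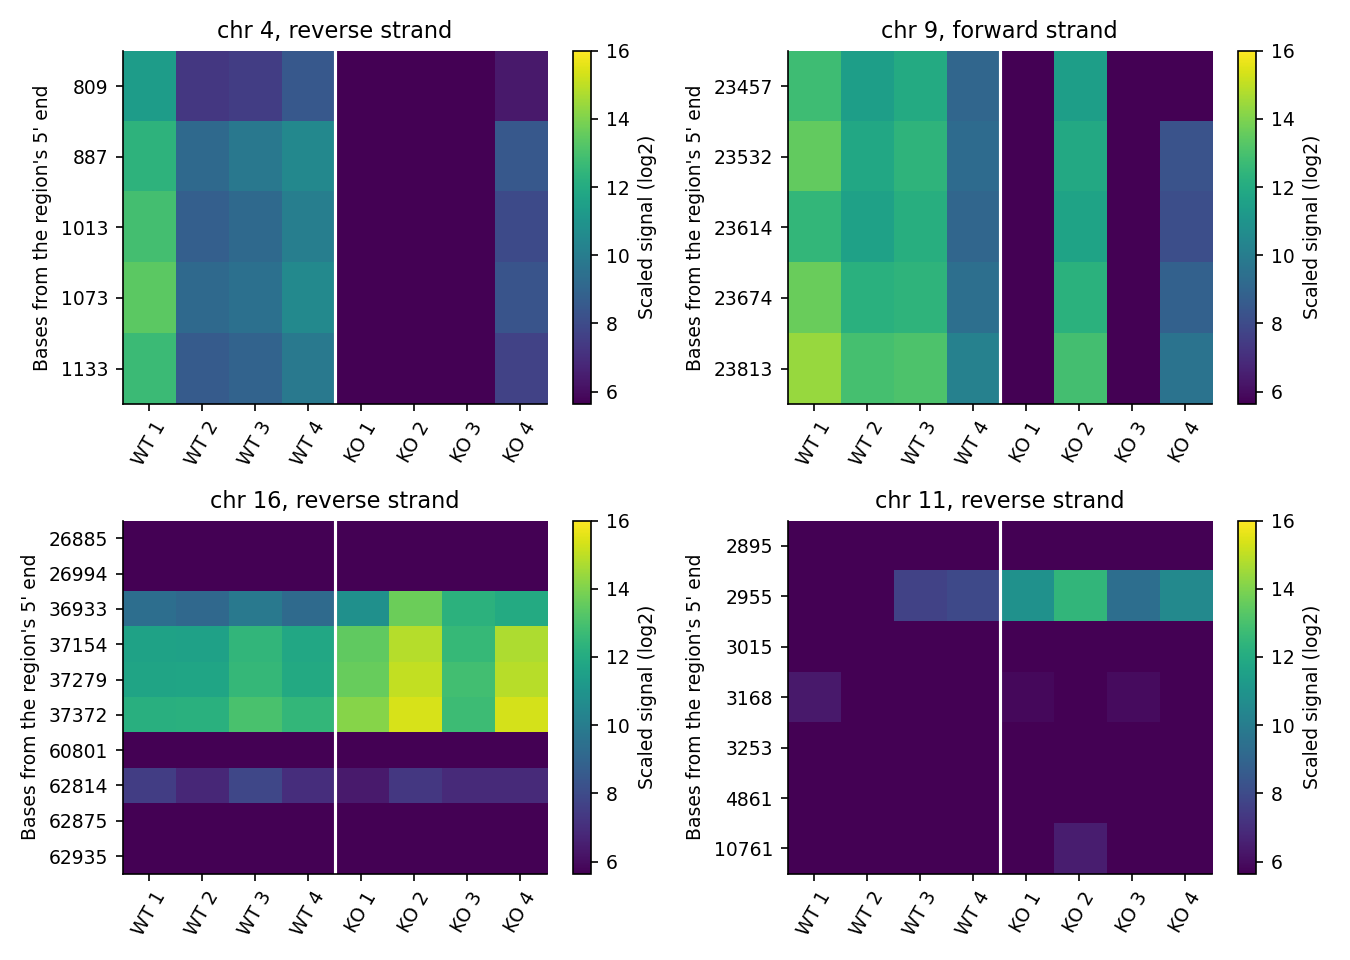
Scaled log2 signal (colour) of every probe of 4 regions (rows, by distance in bases from the 5′ end of the region) in each of the 8 cells (columns, WT left and *Sox17* KO right of the white line). All 5 probes are bright in the same cells in the chr4 region and, but for the first probe in KO cell 4, in the chr9 region, 4 neighbouring probes are bright in the chr16 region, and 1 probe of 7 is bright in the chr11 region.

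A region on chromosome 9 was also bright in the same cells on neighbouring probes of both strands. The 5 forward probes of chr9:14460976-14488051 lay within 23457 to 23813 bases of the 5′ end. The brightest read 14.41, 12.93, 13.09 and 10.19 in WT and 5.64, 12.89, 5.64 and 9.57 in KO cells, a difference of -4.22 (SD 2.77), and -5.71 without KO cell 2. KO cell 2 was as bright as WT cells, so that the genotypes overlapped. The other 4 forward probes differed by -3.55 to -4.23, and 1 of them was at the floor in KO cell 4. On the reverse strand the brightest of 5 probes read 13.03, 10.56, 11.16 and 8.33 in WT and 5.64, 11.57, 5.64 and 9.33 in KO cells, a difference of -2.72 (SD 2.48), and -3.90 without KO cell 2. The 3 reverse probes beside it were bright in the same WT cells and in KO cell 2, and the remaining one, farther along the region, was at the floor in all cells. The nearest mRNA probe was that of *Piwil4*, 22013 bases from the forward probe, and no probe of the array shared 20 bases with the forward probes.

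The region chr16:90038086-90127636 (reverse strand, 89551 bases) was 1 of the 147 regions with 10 probes. Of these, 4 probes between 36933 and 37372 bases from its 5′ end were bright, and 5 of the other 6 were at the floor in all cells. The 4 bright probes are shown in order along the chromosome.
chr16:90090205-90090264 (reverse strand): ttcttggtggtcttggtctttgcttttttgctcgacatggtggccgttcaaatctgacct
chr16:90090298-90090357 (reverse strand): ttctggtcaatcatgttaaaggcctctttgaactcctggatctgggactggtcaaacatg
chr16:90090423-90090482 (reverse strand): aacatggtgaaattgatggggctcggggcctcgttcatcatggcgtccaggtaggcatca
chr16:90090644-90090703 (reverse strand): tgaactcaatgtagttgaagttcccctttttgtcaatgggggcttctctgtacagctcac

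The last of them read 9.39, 9.16, 9.82 and 9.22 in WT and 10.85, 13.69, 12.31 and 11.98 in KO cells, a difference of 2.81 (SD 0.85), with all KO cells above all WT cells by at least 1.04. The brightest read 12.19, 12.20, 13.01 and 12.52 in WT and 14.14, 15.38, 12.76 and 15.33 in KO cells, a difference of 1.92 (SD 0.92), where KO cell 3 overlapped with WT cells. The differences of the others were 2.11 (SD 0.80) and 2.03 (SD 0.83). All 4 probes were higher on average in KO cells, and as they lie side by side they are not independent. An unnamed probe of the opposite strand shared 47 bases with the last of them. It read 9.75, 11.10, 11.79 and 11.57 in WT and 12.97, 14.66, 12.21 and 14.04 in KO cells, a difference of 2.41 (SD 1.01), so that both strands were bright there.

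The widest gap of any region probe was in chr1:169026196-169032664 (forward strand, 4 probes), in probes that are not the brightest of the region. Both probes are shown.
chr1:169028473-169028532 (forward strand): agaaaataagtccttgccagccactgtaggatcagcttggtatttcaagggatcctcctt
chr1:169028546-169028605 (forward strand): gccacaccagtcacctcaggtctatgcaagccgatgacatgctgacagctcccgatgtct

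They read 10.97, 12.08, 10.06 and 8.83, and 11.29, 12.28, 10.95 and 9.30, in the WT cells in order, and both were at the floor in all KO cells, although 3 KO cells were called well above background. The differences were -4.84 (SD 0.98) and -5.31 (SD 0.88). The brightest probe of the region began at the base after the second of them. It overlapped between genotypes, with 9.03, 7.58, 11.72 and 10.28 in WT and 7.61, 6.64, 8.29 and 9.81 in KO cells. The last probe of the region was at the floor in all KO cells and in WT cells 1 and 2, at 10.72 in WT cell 3 and at 9.18 in WT cell 4. It shared 48 bases, in the opposite orientation, with a probe of *Lrpap1*, a chaperone of LDL receptor family proteins, that the file places at the same position. That probe read 5.64, 5.64, 13.96 and 9.87 in WT cells and 5.64 in all KO cells.

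Some regions were bright in 1 or 2 cells and at the floor in the rest. The probe of chr17:95150800-95180650 (forward strand) read 16.23 in WT cell 1, 9.47 in WT cell 2 and was not above the floor in the other 6. A region that overlaps it, chr17:95149413-95174473, read 15.67 and 7.61 in the same cells. The differences were -3.60 and -3.00, and without WT cell 1 they were -1.28 and -0.66. A probe of chr18:69923410-69965360 (forward strand), with *Tcf4* as its nearest mRNA probe, 79190 bases away, read 14.77 in KO cell 1 and 5.64 in the other 7 cells. The region chr14:44292637-44293014 (forward strand, 3 probes) read 16.12, 10.54, 13.10 and 13.71 in WT and 5.64, 12.64, 12.09 and 14.70 in KO cells. Another probe of this region shared 55 bases with the probe of *Rbmxl1*, an RNA-binding protein gene, at chr8:81029396-81029455, with r of 0.9996 between them. The *Rbmxl1* probe read 15.40, 10.10, 11.61 and 13.27 in WT and 5.64, 12.24, 11.51 and 14.30 in KO cells.

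Named long noncoding RNAs were looked at beside the unnamed regions. Of 29 such genes looked for, 24 had a probe, 19 were detected in at least 1 cell and 5 in all 8. *H19*, an imprinted RNA that is abundant in embryonic mesoderm and endoderm, was bright in all cells, at 18.56, 17.64, 18.21 and 17.54 in WT and 18.34, 17.51, 16.96 and 17.27 in KO cells. *Meg3*, an imprinted RNA expressed from the maternal allele, was detected in all 8 cells and ranged from 7.20 to 15.59. No listed gene was at least 5-fold higher in KO cells, and 3 snoRNA host genes were lower by 5-fold with an SD above 2.32. *Snhg1* differed by -2.53 (SD 2.72), *Snhg3* by -3.26 (SD 3.77) and *Snhg12* by -2.95 (SD 3.06), and in all of them the genotypes overlapped.

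Regions that lie inside a named RNA did not always follow it. The array covers *Malat1*, a nuclear RNA of the speckles, with 1 probe of that name and with 3 probes of its alias *NEAT2*, which it places at chr19:5795689-5802671 (reverse strand), and each of the 4 was detected in 1 or 2 cells. The region chr19:5801802-5802597 (reverse strand) lies within it, and its 3 probes were bright in KO cells 1 and 4. The probe nearest to the 5′ end of the 3 read 13.59 in KO cell 4, 13.25 in KO cell 2 and 12.78 in KO cell 1, against 10.18 in WT cell 2 and 5.64 in the rest. This was the largest difference of any region by its brightest probe, 4.54 (SD 3.13), and it was 6.43 without KO cell 3 and 3.78 without KO cell 4. The others, 347 and 408 bases from the 5′ end, differed by 3.22 (SD 2.63) and 4.57 (SD 3.58), and both were at 5.64 in all WT cells and in KO cell 2.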

How the data were processed

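The authors deposited the scanner output of 8 1-colour arrays (Agilent Feature Extraction 12.0.2.2, array design 028005, probe positions on mm9, NCBI build 37, per the file headers). The deposited intensity is background-subtracted and detrended by that software and not normalized between arrays. The authors' normalization in GeneSpring had not been applied to it. Control and outlier spots were left out, and 55295 of 55681 probes usable on all arrays were kept (386 left out). No spot was saturated. A probe counted as detected where over 50% of its usable spots were well above background. Arrays were scaled to the 50th percentile of the 7570 probes detected on all 8, floored at 50 and put on a log2 scale. The depth of an array is its number of detected probes, from 11370 to 18175, and the number of arrays limits the precision.

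Cells were grouped by the genotype in the labels, 4 WT and 4 *Sox17* KO. A genotype is 1 sample, so no test was made. A difference is the KO mean of log2 values less the WT mean, its SD is that of the cells within a genotype (both genotypes pooled), and 5-fold is a limit of size, not of significance. A lower bound on a fold is given where no cell of a genotype was detected. Regions named are the 10 brightest detected in all cells, the 5 with the widest gap between genotypes in each direction, the 3 with the most probes, the 5 with the widest range within a genotype and those whose probes or strands disagreed most. A region is given by its brightest probe over all cells. The regions of chromosomes 8 (40100925), 9 and 19 (5801802), the probes of chr1:169026196-169032664 and the partners in shared sequence were chosen after their values were seen. Members, markers and lists were all chosen with earlier results of these data known. Runs of at least 20 bases shared between probes were searched on both strands, and a partner counted as elsewhere if it lay at least 200 bases away. The partner gene of 1 region is not reported here. Alternatives were other percentiles, quantile normalization, normexp with an offset of 50, floors of 10 and 200, other detection calls, the mean of all probes of a region, and leaving out each cell. The steps were tested on simulated data. Python 3.11.15 (numpy 2.4.6, pandas 2.3.3, matplotlib 3.10.9) and R 4.3.3 with limma 3.58.1 were used.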

Additional observations from a re-analysis of the deposited data

Results flagged for a closer look

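Among the 56 groups of 4 cells tested over the named regions, 3 held a cell whose gap to the nearest other cell, divided by the range of the group, was above Dixon's 95% critical value for 4 values. Chance passes it in about 1 in 20 groups, a rate that does not hold for groups with cells at the floor or chosen for their spread. In chr17:88993214-89025839 (forward strand) WT cell 3 was the highest of the WT cells with a ratio of 0.894, at a log2 signal of 6.46 against 5.64 to 5.73. In chr4:146507925-146532650 (reverse strand) the ratio was 1 in KO cells, with KO cell 4 at 8.33 and the others at the floor, which makes the ratio 1 whatever the fourth cell reads. In chr18:69923410-69965360 (forward strand) the ratio was also 1 in KO cells, with KO cell 1 at 14.77 and the others at the floor, in a region chosen for its wide range.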

How the results depend on the processing

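The share of region probes detected per cell had a median of 22.5%, which was 47.4% with the software's other call (positive and significant) and 9.84% above the floor. Agreement within regions was 55.3% with that other call for the same call, and for values within 2-fold it was 84.0% with that call, 33.4% with a floor of 10 and 84.1% with a floor of 200, against 70.2%. The median difference of 0.00 was 0.24 with normexp, 0.18 with a floor of 10 and 0.034 over probes detected on all arrays. Region probes at least 5-fold higher and lower in KO cells were 45 and 38, and 130 and 85 with a floor of 10, 19 and 18 with a floor of 200, and 16 and 8 among probes detected on all arrays. Regions with every KO cell above every WT cell, and with the reverse, were 17 and 5. They were 8 and 23 at the 75th percentile, 5 and 19 with the floor set first, 10 and 34 at the percentile of all probes, 64 and 9 with a floor of 10, 11 and 3 with a floor of 200, and 11 and 2 among probes detected on all arrays, and 9 with KO above WT after quantile normalization. The floor and the choice of probes change which probes can differ at all. The cause of the other shifts was not tested.

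Leaving out each cell in turn gave 48 to 88 and 42 to 54 for the 5-fold counts, with 88 without KO cell 1 and 85 without KO cell 2. It gave 21 to 77 and 6 to 13 for the counts without overlap, where 3 against 4 cells overlap less readily, 21.7% to 23.2% for detection, and 69.9% to 71.0% and 68.9% to 71.3% for agreement. The differences of the 10 separated regions and of 4 others, 215 values in all, kept their sign in each setting that gave a value. The 10 were chosen for the lack of overlap and the 4 for large differences, so that a kept sign says little. Of 103 values from other settings 16 moved by more than the SD between cells. No paired analysis was possible because no test was made and no label ties equal cell numbers to an embryo. Slide and scan as a block were not run, since there was 1 of each. The brightness of a probe over background limits what can be called, and a region not detected in a cell may still be transcribed there.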

Other observations

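Promoter sequences from RefSeq (GRCm38.p6, 32851 windows) shared at least 40 bases with region probes in both orientations. In the opposite orientation 128 probes in 95 regions did, of which 61.7% were detected in at least 1 cell and 27.3% in all 8. In the same orientation 100 probes in 73 regions did, of which 46.0% were detected in at least 1 cell and 13.0% in all 8. The brightest of the opposite orientation were opposite the promoters of *AU020206* (mean log2 signal 13.24), *Akap11*, which encodes an anchoring protein of protein kinase A (13.19), and *Smim13* (12.26).

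Hairpins of microRNAs in RefSeq shared at least 22 bases with 17 region probes. Those of the *Mir363* cluster on chromosome X and of the *Mirlet7a-1* and *Mirlet7c-2* cluster on chromosome 15 were detected in no cell, except for a probe opposite *Mir92-1* and *Mir92-2* that was detected in 3 cells and stayed at the floor. Probes that overlap *Mir8110*, *Mir8120* and *Mir6516* were above the floor, at mean log2 signals of 9.48, 7.08 and 6.95, while a second probe for *Mir8120* was detected in no cell.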
